A study of Macaca mulatta with 24 samples.

Results

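The genes described here form the bile acid uptake and farnesoid X receptor (FXR) axis of the ileum. They were taken by symbol from the table of normalized ileum signals, which names 7 of the 8 genes sought, each by 1 probe, among 43603 probes and 16250 gene symbols. The 7 genes are SLC10A2, FABP6, SLC51B, NR1H4, NR0B2, FGF19 and GPBAR1. SLC51A is not named there under this symbol, and a probe that the RefSeq gene table assigns to it, listed as LOC711340, is given beside SLC51B, outside all counts of members. All 8 probes were well above background on all 24 arrays.

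Ileal RNA came from 24 young adult male rhesus macaques, 4 unirradiated controls and 20 animals given a single dose of cobalt-60 gamma total-body irradiation (TBI). The irradiated groups held 4 animals on day 4 and 4 on day 7 after 6.7 Gy, the same numbers after 7.4 Gy, and 2 animals on day 12 after each dose. RNA was extracted from a small amount of whole gut tissue of an ileal segment about 3 cm long from each animal. Nothing was pooled, and a signal mixes mucosa, muscle and connective tissue. The same controls, labelled day 4, served for every day, and the protocol text of the 12-day animals names 21 days where their titles and day fields give 12.

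Bile acids made in the liver return from the ileum to the liver through the enterocyte. SLC10A2, the apical sodium-dependent bile acid transporter, takes them up from the lumen, FABP6 binds them in the cytosol, and the SLC51A-SLC51B heterodimer passes them into portal blood. Inside the cell bile acids activate FXR, the nuclear receptor encoded by NR1H4, which induces NR0B2 (the corepressor SHP), FABP6, both SLC51 subunits and FGF19, a hormone that lowers bile acid synthesis in the liver. GPBAR1 encodes TGR5, a membrane receptor for bile acids found on endocrine, immune and muscle cells as well as on epithelium.

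In the 7.4-Gy group on day 4, NR1H4 fell 2.87-fold and NR0B2 rose 3.25-fold against the controls, and these were the only members past the threshold in any of the 6 comparisons of 1 irradiated group with the controls. Neither call held with array position in the fit (-0.77 and 1.04) or with only the compared groups fitted, and they were lost in 6 and 7 of the 8 fits that left out 1 array of these groups. The position term there rests on the 6.7-Gy day 4 group alone, with replicates 1 and 2 in position 1 and replicates 3 and 4 in position 2. The medians of the epithelium markers were lower and those of the stroma markers higher than in the controls in both groups of that day. The transport genes SLC10A2, FABP6 and SLC51B had lower means than the controls on day 4 after each dose without being called. From day 4 to day 7 and from day 4 to day 12, NR1H4 and SLC51B rose. Array position cannot be told apart from these differences between days. The day 7 calls were lost when arrays were scaled to epithelium markers, and the 12-day calls when scaled to enterocyte markers. FGF19 was the most variable member, and its highest signals were in 3 of the 4 day 7 animals of the 7.4-Gy group and 1 day 4 animal of that dose.

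Each value below is a log2 signal relative to the 75th percentile of its array, so that 0 is the signal at that percentile. Differences were tested with limma over 36108 probes and all 24 arrays with Benjamini-Hochberg adjustment, and a gene is said to rise or fall where the adjusted p was under 0.05 and the difference 2-fold or more. Signals of different probes are not set against each other. In whole tissue, fewer cells of a type and less RNA per cell cannot be told apart.

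**Figure D1:**
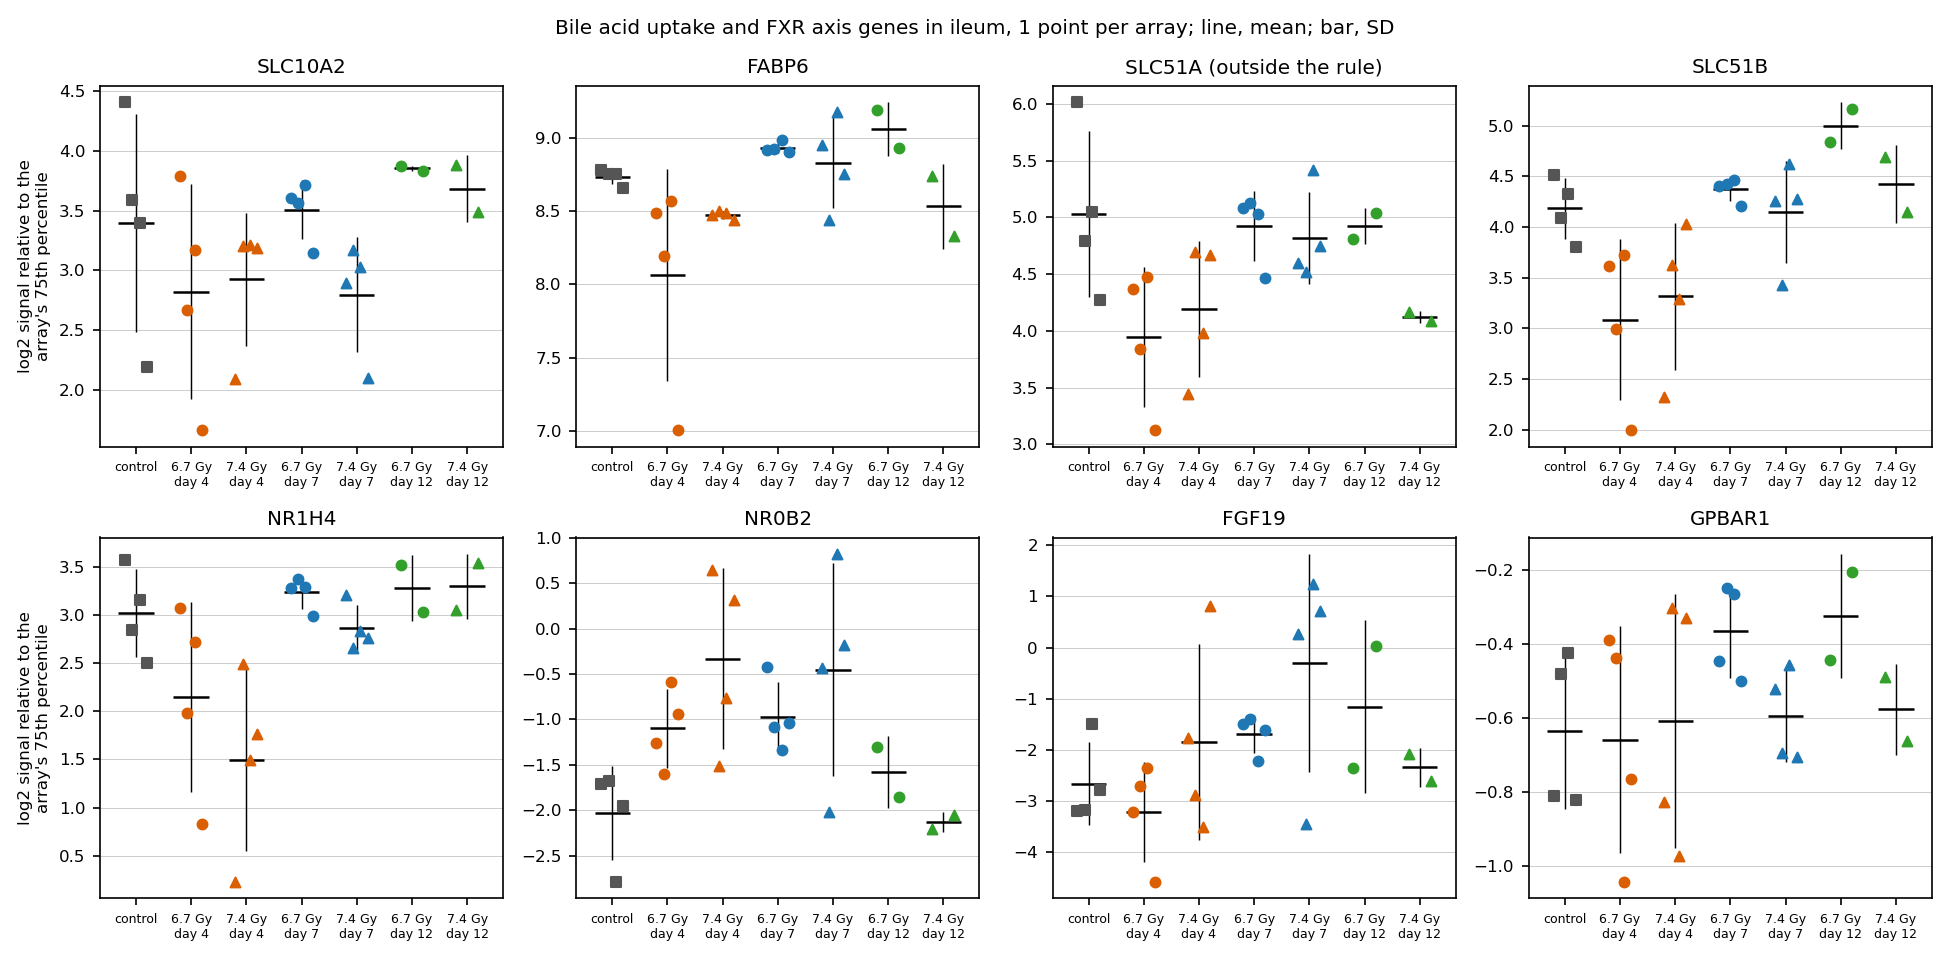
Log2 signal relative to the 75th percentile of the array (vertical axis) for the 7 member genes and SLC51A in each of the 7 groups (horizontal axis), with 1 point per array, a line at the group mean and a bar of 1 SD on either side. NR1H4 reaches down to 0.23 in the 7.4-Gy day 4 group while its controls start at 2.50, and FGF19 spans -4.58 to 1.25.

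Between 72.7% and 88.1% of probes were well above background on an array, and no spot was saturated. The arrays lay on 6 slides of 4 positions. All controls were in position 1, all 7.4-Gy day 4 arrays in position 2, all 6.7-Gy day 7 arrays in position 3 and all 12-day arrays in position 4, and the 7.4-Gy day 7 arrays in positions 3 and 4. Replicates 1 and 2 of the 6.7-Gy day 4 group were in position 1 and replicates 3 and 4 in position 2. A position term between 1 and 2 therefore rests on that group alone, and one between 3 and 4 on the 7.4-Gy day 7 group alone. Positions 1 and 2 held only controls and day 4 and positions 3 and 4 only days 7 and 12, so that position cannot be told apart from the difference of day 7 or day 12 from the controls or from day 4. Control replicate 1 stood apart from the other controls in its smooth muscle markers, whose summed signal was 101 times the 75th percentile against up to 506 in the others and 287 to 562 in irradiated animals, and it had the highest control signal of SLC10A2, SLC51A, SLC51B and NR1H4.

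SLC10A2, the entry step of uptake, had control signals of 4.40, 3.59, 3.40 and 2.20, a mean of 3.40 ± 0.91 (SD, n = 4). On day 4 it measured 3.79, 2.67, 3.17 and 1.67 after 6.7 Gy. After 7.4-Gy TBI it measured 2.09, 3.21, 3.21 and 3.19 on that day. Both groups overlapped with the controls, and replicate 1 of the 7.4-Gy group lay well below its other 3 animals. The difference from the controls was -0.57 ± 0.42 (SE, adjusted p = 0.41) after the lower dose and -0.47 ± 0.42 (adjusted p = 0.53) after the higher one in limma's test. With 1 array left out these ran from -0.97 to -0.19 and from -0.87 to -0.13. The 7.4-Gy value was 0.34 with array position in the fit.

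With 1 exception, later SLC10A2 signals stayed inside the control range. On day 7 they were 3.61, 3.56, 3.72 and 3.15 after 6.7 Gy. Those after 7.4 Gy were 2.90, 3.17, 3.03 and 2.10, the last just below the lowest control. On day 12 the 2 animals of each dose measured 3.87 and 3.83, and 3.88 and 3.49. Against day 4, with both doses averaged, the 12-day level was 1.86-fold higher, which did not pass the test (0.89 ± 0.36, adjusted p = 0.089 by limma). Without the 6.7-Gy day 4 replicate 1 it did (1.05, adjusted p = 0.04). The spread of SLC10A2 within groups, a pooled SD of 0.63, is at the 90.7th percentile of all tested probes.

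FABP6, the cytosolic bile acid-binding protein, was tightly set in the controls at 8.78, 8.75, 8.75 and 8.66 (8.74 ± 0.05). In the 6.7-Gy group on day 4 it measured 8.48, 8.20, 8.57 and 7.00, and after 7.4 Gy 8.47, 8.50, 8.48 and 8.44. All 8 day 4 animals lay below all 4 controls. By limma neither difference passed: -0.67 ± 0.24 after 6.7 Gy, a 1.59-fold lower level with an adjusted p of 0.11, and -0.26 ± 0.24 after 7.4 Gy with an adjusted p of 0.54. Without 6.7-Gy replicate 4 the first of these was -0.32. The second passed the methods' t-test after Benjamini-Hochberg adjustment (adjusted p = 0.034), which uses the spread of these 2 groups alone (SD 0.05 and 0.03, against a pooled SD of 0.34 over all groups), and was under 2-fold. The sign of the 7.4-Gy value turned under 2 of the alternatives, to 0.29 with array position in the fit and to 0.16 when arrays were scaled to epithelium markers. The position term rests on the 6.7-Gy group of that day, whose replicate 4, at 7.00, was in position 2.

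On day 7 FABP6 measured 8.91, 8.92, 8.98 and 8.90 after 6.7 Gy, each above all controls, and 8.95, 8.44, 9.18 and 8.75 after 7.4 Gy, which overlapped with them. The 12-day signals were 9.19 and 8.93 after the lower dose and 8.74 and 8.33 after the higher dose. From day 4 to day 7 the mean over both doses was 1.53-fold higher (0.61 ± 0.17, adjusted p = 0.02 by limma), a difference that passed the test but not the 2-fold limit. The 12-day level exceeded that of day 4 by 0.53 (adjusted p = 0.076). The probe was among the bright ones, with intensities between 162200 and 546800 and no saturation mark.

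SLC51B, the smaller subunit of the exporter, measured 4.51, 4.09, 4.32 and 3.81 in the controls (4.18 ± 0.30). On day 4 the signals were 3.62, 3.00, 3.72 and 1.99 after 6.7 Gy and 2.33, 3.63, 3.29 and 4.03 after 7.4 Gy. Every 6.7-Gy animal lay below every control, whereas replicate 4 of the 7.4-Gy group lay among them. The level was 2.14-fold lower after 6.7 Gy (-1.10 ± 0.35, adjusted p = 0.088 by limma), and the difference after 7.4 Gy was -0.87 ± 0.35 (adjusted p = 0.14). With both doses averaged the difference of -0.98 ± 0.31 passed the test (adjusted p = 0.049) but was 1.98-fold, just under the limit. It did not pass without control replicate 1, 2 or 3, 6.7-Gy replicate 2 or 4, or 7.4-Gy replicate 1 or 3 (-1.01 to -0.80, adjusted p 0.063 to 0.15). It passed and went past 2-fold without control replicate 4 (-1.11), 6.7-Gy replicate 1 (-1.07) or 3 (-1.09), or 7.4-Gy replicate 2 (-1.03) or 4 (-1.10).

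SLC51B rose after day 4. On day 7 it measured 4.40, 4.42, 4.47 and 4.21 after 6.7 Gy and 4.26, 3.43, 4.63 and 4.28 after 7.4 Gy, around the control level. On day 12 the signals of 4.83 and 5.16 after 6.7 Gy were above all controls, and those after 7.4 Gy were 4.70 and 4.15. The rise from day 4 was 2.09-fold by day 7 (1.06 ± 0.25, adjusted p = 0.0093 by limma) and 2.85-fold by day 12 (1.51 ± 0.31, adjusted p = 0.0037), and all 4 animals of day 12 were above all 8 of day 4. The day 7 rise remained past the adjusted threshold but fell short of 2-fold without 6.7-Gy day 4 replicate 4 (0.88), 7.4-Gy day 4 replicate 1 (0.90) or 7.4-Gy day 7 replicate 3 (0.98). The 12-day rise kept its call when any 1 array of days 4 and 12 was left out. When arrays were scaled to epithelium or enterocyte markers the day 7 rise lost its call (down to 0.77). Scaled to enterocyte markers, the 12-day rise missed the test (down to 1.04, adjusted p up to 0.13 by limma). Against the controls, the 12-day 6.7-Gy level was 1.76-fold higher without passing (0.81 ± 0.43, adjusted p = 0.6).

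For SLC51A, the partner subunit, the controls measured 6.01, 4.79, 5.05 and 4.27. Signals on day 4 were 4.37, 3.84, 4.47 and 3.12 after 6.7 Gy and 3.44, 4.69, 3.98 and 4.66 after 7.4 Gy. The groups overlapped with control replicate 4, the lowest control. The differences were -1.08 ± 0.35 (2.11-fold lower, adjusted p = 0.09 by limma) and -0.83 ± 0.35 (adjusted p = 0.15), and -0.96 ± 0.30 (adjusted p = 0.051) with both doses averaged. Without control replicate 1 the averaged difference was -0.63 (adjusted p = 0.22). It was past both limits without control replicate 4 (-1.21), 6.7-Gy replicate 1 (-1.03) or 3 (-1.04), or 7.4-Gy replicate 2 (-1.04) or 4 (-1.03).

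On day 7 SLC51A measured 5.08, 5.13, 5.03 and 4.46 after 6.7 Gy and 4.60, 4.52, 5.41 and 4.75 after 7.4 Gy. The day 7 level was 1.74-fold above day 4 (0.80 ± 0.25, adjusted p = 0.037 by limma), past the test and short of 2-fold. On day 12 the lower dose gave 4.81 and 5.04, inside the control range, and the higher dose 4.16 and 4.09, both below the lowest control. The difference of these 2 animals from the controls did not pass the test (-0.90 ± 0.43, adjusted p = 0.6 by limma). The 12-day level exceeded that of day 4 by 0.45 (adjusted p = 0.29).

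NR1H4, which encodes FXR itself, had control signals of 3.57, 2.84, 3.15 and 2.50 (3.02 ± 0.46). After 6.7-Gy TBI the day 4 animals measured 3.07, 1.98, 2.71 and 0.83, and after 7.4 Gy 0.23, 2.49, 1.50 and 1.76. All 4 animals of the 7.4-Gy group were below all controls, replicate 2 at 2.49 just under the lowest control, while the 6.7-Gy group overlapped with them. NR1H4 fell by 1.52 ± 0.42 on the log2 scale after 7.4 Gy (95% confidence interval -2.39 to -0.65, adjusted p = 0.034 by limma). After 6.7-Gy TBI the difference was -0.87 ± 0.42 (adjusted p = 0.22), and averaged over both doses NR1H4 fell 2.29-fold (-1.19 ± 0.36, adjusted p = 0.043). The difference between the doses on day 4 did not pass the test (7.4 Gy minus 6.7 Gy, -0.65, interval -1.52 to 0.21, adjusted p = 0.88). With 1 array left out the 6.7-Gy difference from the controls ran from -1.17 to -0.43, and that between the doses from -1.09 to -0.23.

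The 7.4-Gy call of NR1H4 depended on single animals. Left out singly, control replicates 1, 2 and 3 and 7.4-Gy replicates 1, 3 and 4 each ended it, with differences of -1.34, -1.58 and -1.48 and of -1.10, -1.52 and -1.61 and adjusted p between 0.052 and 0.13. The averaged call was lost without control replicates 1, 2 or 3, 6.7-Gy replicates 2 or 4, or 7.4-Gy replicates 1 or 3, with differences between -1.25 and -0.97. Against the control on the same slide, the 2 slides that held both gave -2.92 and -0.01 for 7.4-Gy TBI, and the 2 slides for 6.7-Gy TBI gave -0.86 and -2.01. With slide as a term the 7.4-Gy difference was -1.69 (adjusted p = 0.052), and with array position as a term -0.77 (adjusted p = 0.68).

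By day 7 NR1H4 was near the control level, at 3.27, 3.37, 3.29 and 2.98 after 6.7 Gy and 3.20, 2.66, 2.83 and 2.76 after 7.4 Gy. The mean of both doses differed from the controls by 0.03 ± 0.36, with an interval of -0.72 to 0.78 (adjusted p = 0.98 by limma). On day 12 the signals were 3.52 and 3.03 after the lower dose and 3.05 and 3.53 after the higher dose. NR1H4 rose 2.34-fold from day 4 to day 7 (1.23 ± 0.29, adjusted p = 0.011), and this call held when any 1 array of days 4 and 7 was left out and with slide as a term (1.31). It was short of 2-fold when each array was scaled to its epithelium markers (0.94, adjusted p = 0.017) and missed the test when scaled to all its enterocyte markers (1.02, adjusted p = 0.13). The rise from day 4 to day 12 was 2.76-fold (1.46 ± 0.36, adjusted p = 0.011) and missed the threshold without 6.7-Gy day 12 replicate 1 (1.34, adjusted p = 0.055).

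NR0B2, the SHP corepressor and a target of FXR, measured -1.71, -1.68, -2.79 and -1.95 in the controls (-2.03 ± 0.52). On day 4 it measured -1.25, -1.60, -0.59 and -0.94 after 6.7 Gy and 0.65, -1.51, -0.77 and 0.31 after 7.4 Gy. All 8 animals were above all controls. NR0B2 rose by 1.70 ± 0.48 on the log2 scale after 7.4 Gy (interval 0.69 to 2.71, adjusted p = 0.04 by limma), while the difference after 6.7 Gy was 0.93 ± 0.48 (1.91-fold, adjusted p = 0.25). Averaged over doses it was 2.49-fold above the controls and narrowly missed the threshold (1.31 ± 0.42, adjusted p = 0.052), which it passed without 7.4-Gy replicate 2 (1.51, adjusted p = 0.023). The difference between the doses was 0.77, with an interval of -0.24 to 1.77 (adjusted p = 0.88).

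The 7.4-Gy call of NR0B2 on day 4 was lost without any of control replicates 1 to 4 (1.81, 1.82, 1.45 and 1.73) and without 7.4-Gy replicates 1, 3 or 4 (1.37, 1.85 and 1.49), with adjusted p between 0.053 and 0.15. Within slides the 7.4-Gy arrays exceeded the control of their slide by 3.44 and 0.44, and the 6.7-Gy arrays by 1.11 and 0.74. The difference was 2.16 with slide as a term (adjusted p = 0.024) and 1.04 with array position as a term (adjusted p = 0.54).

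On day 7 NR0B2 measured -0.43, -1.08, -1.34 and -1.04 after 6.7 Gy, all above the controls, and -0.44, -2.01, 0.82 and -0.19 after 7.4 Gy, where replicate 2 lay at the control level. The levels were 2.08-fold (1.06 ± 0.48, adjusted p = 0.5 by limma) and 2.98-fold (1.58 ± 0.48, adjusted p = 0.14) above the controls, and 2.49-fold with both doses averaged (1.32 ± 0.42, adjusted p = 0.14). Without 7.4-Gy day 7 replicate 2 the 7.4-Gy and the averaged difference passed, at 2.10 (adjusted p = 0.026) and 1.58 (adjusted p = 0.033). Each of the 6 day 7 arrays that shared a slide with a control exceeded it, by 0.60 to 2.53. The 7.4-Gy replicates 1 and 2, the second at the control level, lay on slides without a control. The controls of slides 1 and 2 each served for 2 of these arrays, and array position differed in every pair.

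By day 12 NR0B2 was back among the controls after the higher dose, at -2.21 and -2.05, and measured -1.30 and -1.86 after the lower dose. The 12-day level was 2.2-fold below day 4 (-1.14 ± 0.42, adjusted p = 0.063 by limma) and 2.21-fold below day 7 (-1.14, adjusted p = 0.23). With array position as a term the difference from day 7 was -2.30 (adjusted p = 0.22), and with slide as a term -0.73. The difference from day 4 passed without 7.4-Gy day 4 replicate 2 (-1.34, adjusted p = 0.025).

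FGF19, the enterokine that FXR induces, measured -3.19, -3.18, -1.49 and -2.77 in the controls (-2.66 ± 0.81). Its day 4 signals were -3.21, -2.71, -2.36 and -4.58 after 6.7 Gy and -1.78, -2.89, -3.51 and 0.81 after 7.4 Gy. Replicate 4 of the 7.4-Gy group stood above all controls and the other 7 day 4 animals did not. On day 7 the signals after 6.7 Gy were -1.50, -1.40, -2.23 and -1.60. Those after 7.4 Gy were 0.27, -3.44, 1.25 and 0.71, with 3 animals above all controls and replicate 2 below them.

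The day 7 differences of FGF19 from the controls were 0.98 ± 0.91 after 6.7 Gy (adjusted p = 0.83 by limma) and 2.36 ± 0.91 after 7.4 Gy, a 5.12-fold higher mean (adjusted p = 0.26). Averaged over doses the day 7 level was 3.17-fold above the controls (1.67 ± 0.79, adjusted p = 0.36) and 2.9-fold above day 4 (1.54 ± 0.64, adjusted p = 0.12). Without 7.4-Gy day 7 replicate 2 the 7.4-Gy difference from the controls was 3.40 (adjusted p = 0.052), and without replicate 3 it was 1.84. The difference from day 4 passed without 7.4-Gy day 7 replicate 2 (2.06, adjusted p = 0.017) or 7.4-Gy day 4 replicate 4 (1.98, adjusted p = 0.035), and over all 16 arrays left out singly it ran from 1.26 to 2.06. On day 12 it measured -2.34 and 0.04 after 6.7 Gy and -2.08 and -2.60 after 7.4 Gy. The signals of FGF19 spanned 56.8-fold over the 24 arrays, and its pooled SD within groups, 1.39, is at the 99.5th percentile of all tested probes. The interval of the 7.4-Gy day 7 difference ran from 0.46 to 4.25, so that 4 animals a group left a wide range open.

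GPBAR1, the membrane bile acid receptor TGR5, varied least. It lay between -0.82 and -0.42 in the controls, between -1.04 and -0.30 on day 4, between -0.70 and -0.25 on day 7 and between -0.66 and -0.20 on day 12. Its 24 signals fell within 1.79-fold, with a pooled SD of 0.23 (32.8th percentile). Every irradiated group overlapped with the controls, and the 6.7-Gy day 7 difference was 0.27 ± 0.17 (adjusted p = 0.67 by limma).

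**Figure D2:**
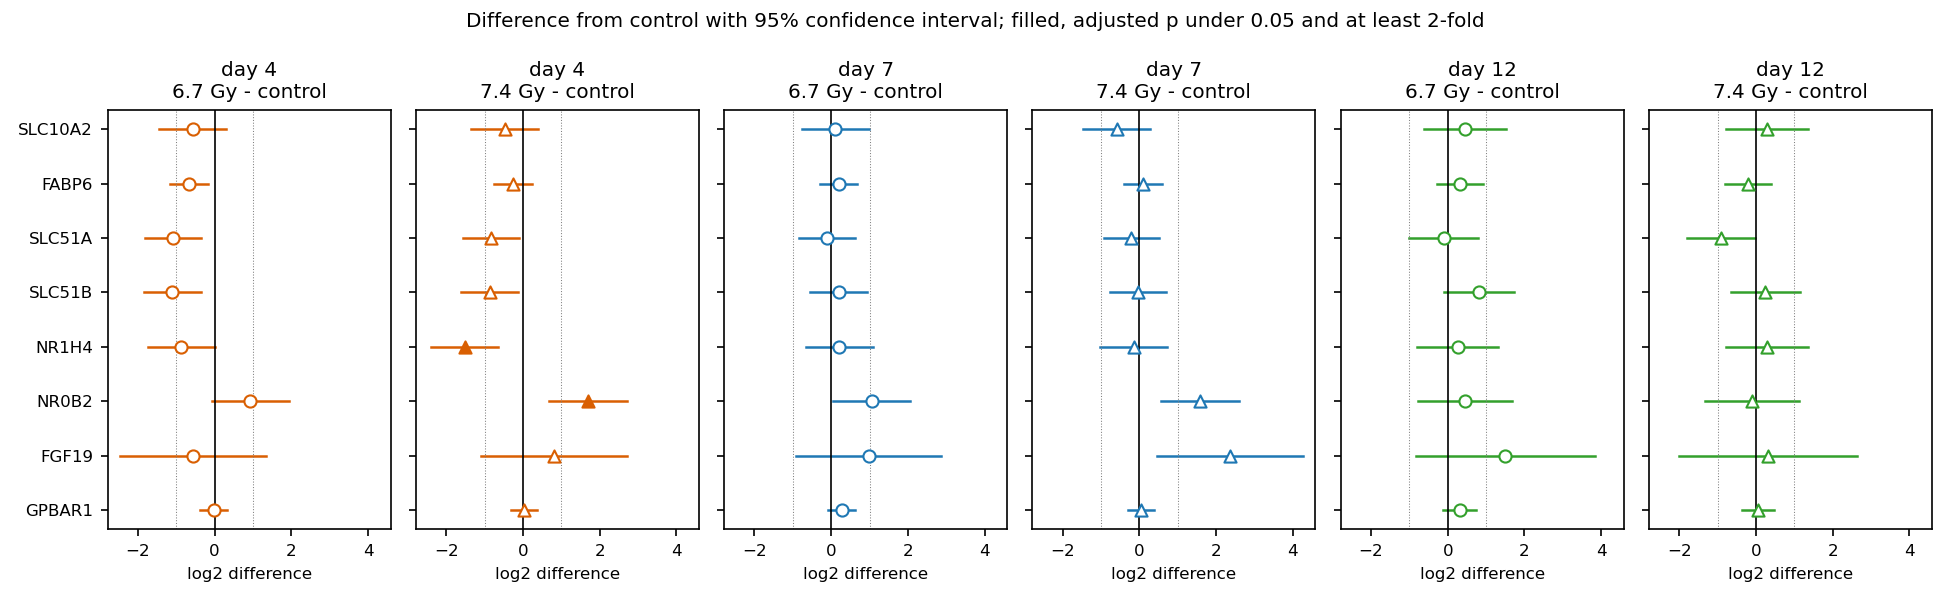
Log2 difference from the controls (horizontal axis) of the 7 member genes and SLC51A (vertical axis), 1 panel for each irradiated group, with 95% confidence intervals from limma and dotted lines at 2-fold. The filled symbols, NR1H4 at -1.52 and NR0B2 at 1.70 in the 7.4-Gy group on day 4, passed an adjusted p of 0.05 and 2-fold, and the widest intervals belong to FGF19.

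Counted together in the 7.4-Gy group on day 4, 1 of the 7 members rose and 1 fell. Among all 36108 probes 1.6% rose and 0.734% fell, 2.33% in all. After 6.7-Gy TBI limma called 0 of 7 against 0.978% of all probes. At an unadjusted p under 0.05 and 2-fold there was 1 member, SLC51B, in limma (2.95% of all probes) and 1 by the methods' t-test, which called 663 of all probes. On that day 1 member was wholly above and 2 wholly below the controls after 6.7 Gy, where 4.1% and 7.71% of all probes were, and again 1 and 2 after 7.4 Gy, where 7.84% and 7.91% were. The median difference of the members was -0.57 and -0.26 for the 2 doses, beside -0.10 and -0.07 over all probes. Averaged over doses, limma called 1 of 7 members, NR1H4, beside 2.06% of all probes in either direction and 0.762% downwards. In the 8 animals of both doses 1 member, NR0B2, was wholly above the controls and 1, FABP6, wholly below, as were 2.54% and 2.99% of all probes.

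On day 7 limma called 0 of 7 members against the controls after either dose, where it called 0.235% of all probes after 6.7 Gy and 0.568% after 7.4 Gy. At an unadjusted p and 2-fold there was 1 member after the lower dose, NR0B2 (1.32% of all probes), and there were 2 after the higher one, NR0B2 and FGF19 (2.38%), and the methods' t-test without adjustment gave 1 after each dose, with 370 and 499 of all probes. After 6.7-Gy TBI 2 members, FABP6 and NR0B2, were wholly above the controls, as were 4.47% of all probes. On day 12 limma called 0 of 7 after each dose, also without adjustment and by the methods' t-test, against 0.108% and 0.0443% of all probes (1.68% and 1.84% unadjusted). FABP6 and SLC51B were wholly above the controls in the 2 animals after 6.7 Gy, where 15.3% of all probes were.

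Between days the calls were upwards. Limma called 2 of 7 higher on day 7 than on day 4, NR1H4 and SLC51B, where 0.645% of all probes were called higher and 1.06% in all, and the median of the members was 0.61 beside 0.05 over all probes. On day 12 against day 4 limma called 2 of 7 higher, again NR1H4 and SLC51B, beside 1.54% of all probes (2.75% in all), and the medians were 0.78 and 0.09. All 12-day signals of 1 member, SLC51B, were above all of day 4, as for 5.04% of all probes. These comparisons share the day 4 animals. Between day 12 and day 7 limma called 0 of 7, beside 0.114% of all probes, and 1 member, NR0B2, was 2-fold lower at an unadjusted p (1.06% of all probes). With day 7 averaged over doses limma called 0 of 7 against the controls, beside 0.573%, and with day 12 averaged 0 of 7, beside 0.244%. The dose comparisons gave 0 of 7 on each day, also without adjustment, beside 0%, 0% and 0.00277% of all probes, or 0.424%, 0.39% and 1.55% unadjusted.

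**Figure D3:**
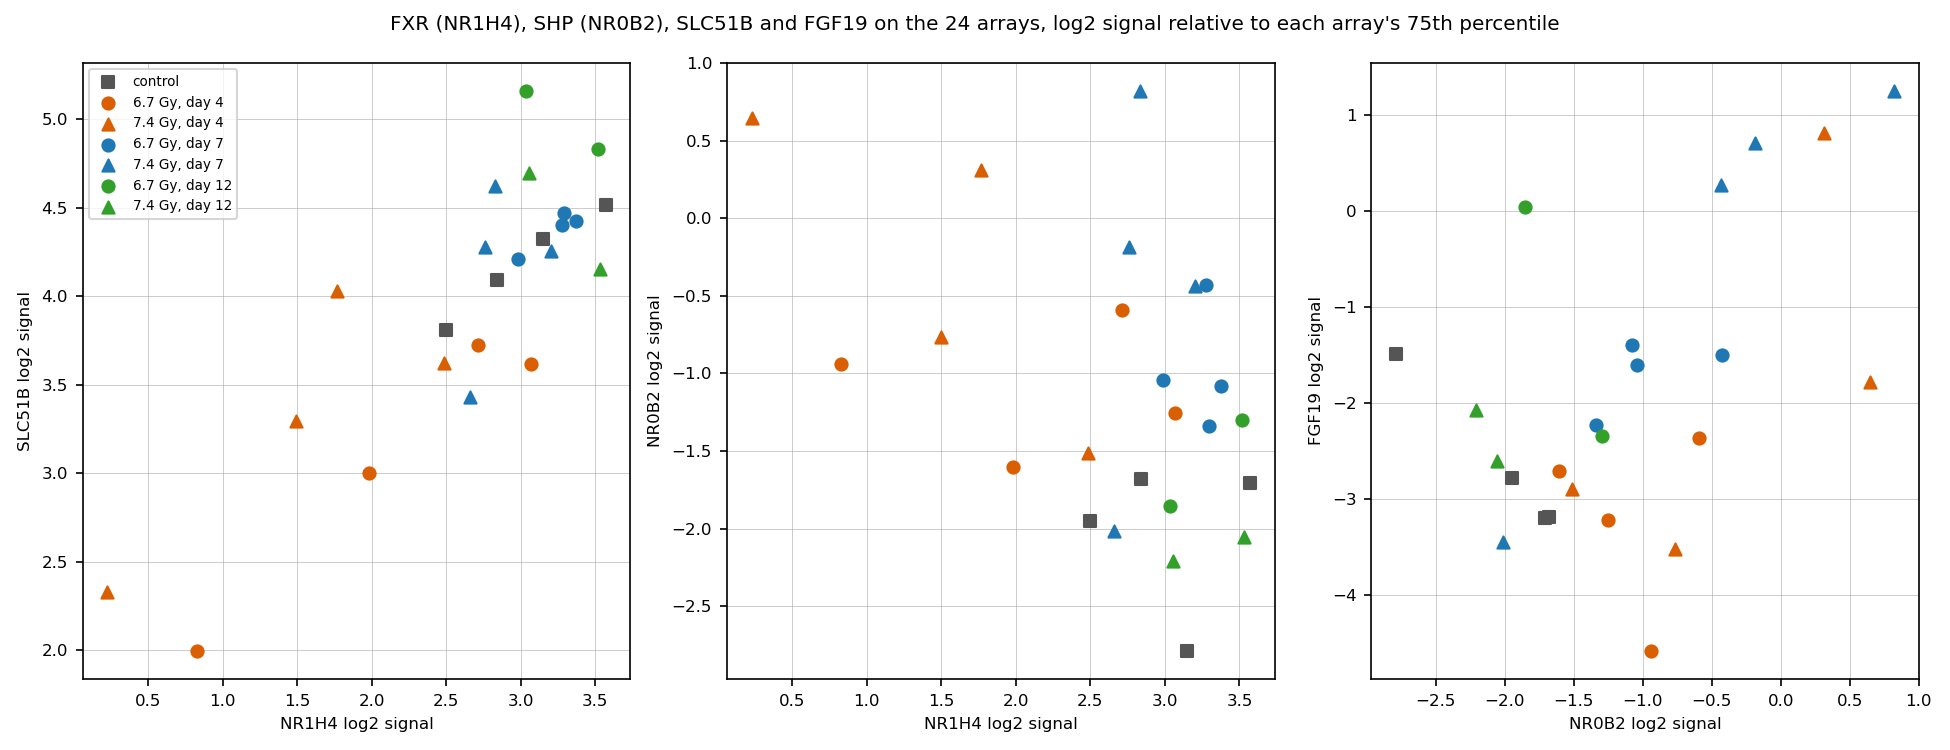
Log2 signals of 2 genes on each of the 24 arrays, coloured by group, for SLC51B against NR1H4 (left), NR0B2 against NR1H4 (middle) and FGF19 against NR0B2 (right). SLC51B and NR1H4 follow each other with an r of 0.847, while the highest NR0B2 signals, 0.82, 0.65 and 0.31, lie at NR1H4 signals of 2.83, 0.23 and 1.76 (r = -0.435 over the 24 arrays).

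Among the transport genes, SLC51A included, and NR1H4, Pearson's r over the 24 arrays was positive for every pair, from 0.552 for SLC10A2 and FABP6 upwards. It was 0.847 for NR1H4 and SLC51B, 0.82 for FABP6 and SLC51B, 0.794 for the SLC51 subunits, 0.719 for SLC10A2 and NR1H4, 0.659 for SLC10A2 and SLC51A and 0.648 for FABP6 and NR1H4. After removal of the group means these were 0.791, 0.728, 0.844, 0.777, 0.806 and 0.608. FGF19 had an r of 0.536 with FABP6, 0.519 with SLC51B, 0.515 with NR0B2 and 0.176 with NR1H4. NR0B2 had -0.435 with NR1H4. These are descriptions over arrays that share tissue composition, scaling and slides.

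The genes most like each member over the 24 arrays were found among 14233 named genes. MAOA (monoamine oxidase A), KHK (ketohexokinase) and LOC718930 were nearest to NR1H4, with r of 0.955, 0.932 and 0.932. LOC718739 and LOC701688 followed SLC51B with r of 0.942 and 0.933. For FABP6 they were LOC703104, ZG16 (a goblet cell lectin) and GAL3ST1 at 0.898, 0.887 and 0.883, and for SLC10A2 MAPK6, LOC713636 and CLRN3 at 0.912, 0.907 and 0.884. SLC51A was nearest to SETD9 (0.92), PRR13 (0.882) and LOC717193 (0.877).

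The other 3 members had no neighbour so close. NR0B2 was nearest to LRRC49 (0.739), TCEAL7 (0.691) and HOXA7 (0.687). FGF19 was nearest to LOC701243 (0.742), RNASEK (0.727) and KLHL24 (0.702), and GPBAR1 to TSC2 (0.792), NPTX1 (0.716) and AGXT2 (0.71).

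Cell type markers also differed from the controls on day 4. Of 10 epithelium markers 7 had a probe, all above background on every array, and their summed signal, in units of the 75th percentile, was 343 to 507 in the controls, 243 to 353 in the 6.7-Gy group on day 4 and 268 to 320 after 7.4 Gy. The 7 stroma markers summed to 38.2 to 67.9 in the controls, 60.4 to 97.3 after 6.7 Gy and 80.0 to 145 after 7.4 Gy. Of 12 absorptive enterocyte markers 8 had a probe, with sums of 104 to 263, 38.2 to 250 and 124 to 221 in the same order. The lowest of the enterocyte sums was in 6.7-Gy replicate 4, the animal with the lowest FABP6, SLC51A, SLC51B, SLC10A2 and FGF19. Its mean log2 signal was also the highest of any array for the immune cell (1.01) and proliferating cell markers (1.03) and the lowest for the goblet cell markers (3.69). Of the 8 tested enterocyte markers 1 was called on day 4, VIL1, the brush border protein villin (-1.33 and -1.27 after the lower and the higher dose, adjusted p = 0.0011 and 0.00085 by limma), and the medians of the list were -0.22 and -0.06. The epithelium medians were -0.56 and -0.58, with 1 of 7 and 0 of 7 called lower, and the stroma medians 0.36 and 0.82, with 0 of 7 and 3 of 7 called higher. Of 7 goblet cell markers 4 were tested, with medians of -0.86 and -0.67, and 2 of these, AGR2 and CLCA1, fell after each dose. The goblet sums over 5 probes were 354 to 412 in the controls, 134 to 326 after the lower dose and 248 to 377 after the higher dose.

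By day 7 the epithelium sums were 389 to 464 in the 6.7-Gy group and 351 to 410 in the 7.4-Gy group, and by day 12 372 to 408 and 361 to 378. The stroma sums were 35.8 to 62.6 and 58.5 to 92.3 on day 7 and 42.0 to 60.1 and 38.6 to 64.4 on day 12. The enterocyte sums were 136 to 144 and 94.9 to 193 on day 7 and 231 to 240 and 126 to 182 on day 12. On day 4 the mean log2 signal of 5 smooth muscle markers was 1.91 in control replicate 1, 4.26 to 4.35 in the other controls, 3.76 to 4.62 in the 6.7-Gy group and 4.32 to 4.87 in the 7.4-Gy group, and 0 of the 5 were called. The median of 5 proliferating cell markers was 0.44 and 0.09 higher, with 0 called. Of 7 immune cell markers 1, CD14, was called higher after the higher dose, with list medians of -0.48 and -0.28. The goblet sums were 336 to 399 and 302 to 347 on day 7 and 339 to 396 and 309 to 380 on day 12. The part of the epithelium, enterocyte, stroma, goblet cell, smooth muscle, proliferating cell and immune cell markers in the members' differences was not tested.

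The identity of the tissue was read from the same lists. The ileal and distal markers CUBN, NTS and PYY were above background in all controls, and INSL5 of the same list was so on 11 arrays. Of 10 proximal small intestine markers 9 had a probe, and 8 of these were above background on all 24 arrays, the exception being GATA4 with 1 array and 0 of 4 controls. These lists did not separate ileum from proximal intestine. FABP2 was above background on 10 of 24 arrays and in 1 of 4 controls. Of 6 hepatocyte markers 4 were above background on all 24 arrays (TTR, SERPINA1, APOH and FGB), ALB on 10 and AHSG on 8.

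**Figure D4:**
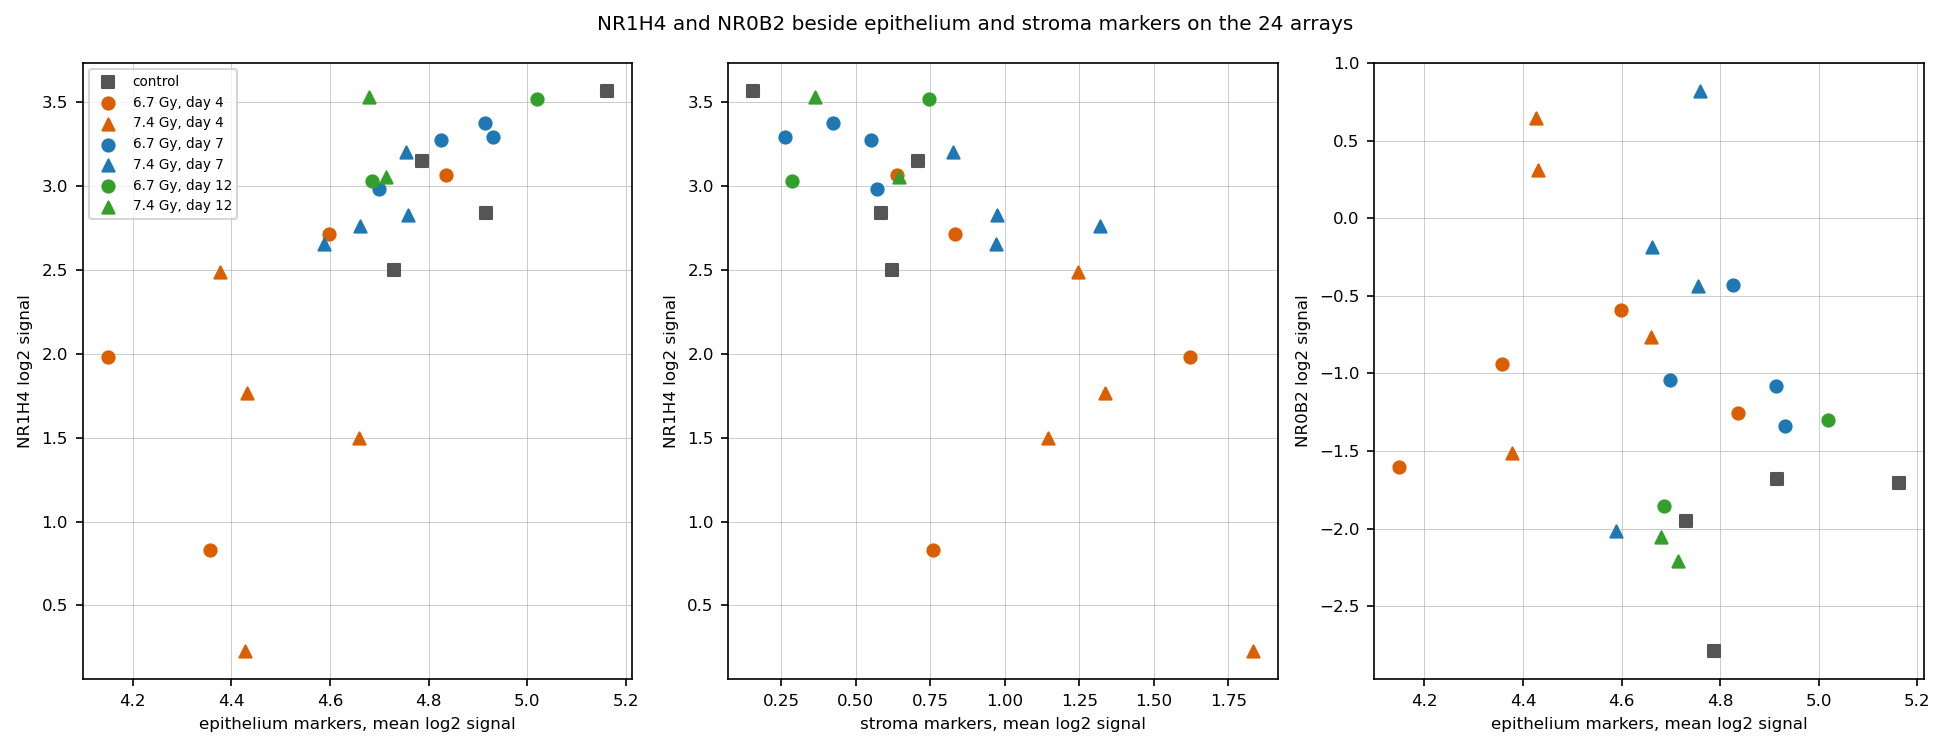
Log2 signal of NR1H4 against the mean log2 signal of 7 epithelium markers (left) and of 7 stroma markers (middle), and of NR0B2 against the epithelium markers (right), on the 24 arrays, coloured by group. NR1H4 has an r of 0.717 with the epithelium markers and -0.723 with the stroma markers, 1 of the 8 day 4 arrays (6.7-Gy replicate 1) lies within the control range of NR1H4, epithelium and stroma signals, and NR0B2 has an r of -0.2 with the epithelium markers.

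Over the 24 arrays NR1H4 had an r of 0.717 with the mean log2 signal of the epithelium markers, 0.667 with the enterocyte markers and -0.723 with the stroma markers. After removal of the group means these were 0.499, 0.804 and -0.409. SLC10A2, FABP6 and SLC51B had 0.839, 0.736 and 0.744 with the enterocyte markers, and NR0B2 and FGF19 -0.159 and 0.28. SLC10A2, FABP6 and SLC51B had 0.797, 0.609 and 0.652 with the ileal and distal markers, 0.579, 0.511 and 0.504 with the hepatocyte markers and 0.331, 0.56 and 0.53 with the proximal markers. Without the group means the hepatocyte values were 0.845, 0.608 and 0.78, beside 0.839, 0.841 and 0.851 for the enterocyte markers. When each array was scaled to its epithelium markers in place of the 75th percentile, an alternative added after the data were seen, the day 4 differences after 7.4 Gy were -1.10 for NR1H4 (adjusted p = 0.043 by limma) and 2.12 for NR0B2 (adjusted p = 0.0071). The change of scale moved every probe of a comparison by the same amount. The markers' mean log2 signal was 4.90 in the controls and 4.47 on day 4 after 7.4 Gy. The larger value of NR0B2 and the smaller fall of NR1H4 follow from that shift. The probes called on that scale numbered 1601 after 6.7 Gy, 2595 after 7.4 Gy and 2293 over both doses, in place of 353, 842 and 743. NR0B2 also rose over both doses on day 4 there (1.73, adjusted p = 0.0055), while the rises of NR1H4 and SLC51B from day 4 to day 7 were short of 2-fold (0.94 and 0.77, adjusted p = 0.017 and 0.023).

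Scaled to the 7 enterocyte markers above background on all arrays, the 7.4-Gy day 4 differences were -1.27 for NR1H4 (adjusted p = 0.18 by limma) and 1.95 for NR0B2 (adjusted p = 0.21), past the 2-fold limit and not past the test. On this scale NR1H4 kept its rise from day 4 to day 7 (1.08, adjusted p = 0.045), and its rise to day 12 was 0.99 (adjusted p = 0.1).

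Other genes of the pathway were described by lists. Of 15 nuclear receptors and factors of bile acid genes 10 were tested. On day 4, 10 of 10 had lower means than the controls after the lower dose (median -0.43), as did 61.2% of all probes, and 9 of 10 after the higher dose (median -0.42), as did 58% of all probes. NR5A2 (LRH-1, the receptor that SHP represses) was the only one called against a control group. Its control signals ran from -0.23 to 0.09 and those of day 4 after 7.4 Gy from -1.71 to -0.69, below all controls. NR5A2 fell by 1.08 ± 0.21 (adjusted p = 0.005 by limma), and after 6.7 Gy, at -1.02 to -0.53, it did not pass (-0.68, adjusted p = 0.073). It rose by 1.30 from day 4 to day 12 (adjusted p = 0.00025), when 10 of 10 genes of the list were above their day 4 level, as were 59.3% of all probes, and the median was 0.80.

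Of 12 genes of bile acid synthesis and conjugation 5 were tested, and CH25H, which makes 25-hydroxycholesterol, was called. It measured -3.93 to -3.37 in the controls, -2.41 to -1.82 in the 6.7-Gy group on day 4 and -1.98 to -1.43 after 7.4 Gy, without overlap. CH25H rose by 1.48 ± 0.19 and 1.78 ± 0.19 (adjusted p = 0.00031 and 2e-05 by limma) and fell by 1.24 from day 4 to day 7 (adjusted p = 3.5e-05). The other 4 tested genes of this list had lower means than the controls on day 4 after both doses, and 0 of them were called. The ranges of AMACR overlapped the controls after each dose, as did those of CYP27A1 and CYP7A1. Those of AKR1D1 overlapped after 7.4 Gy. After 6.7 Gy AKR1D1, at -4.90 to -4.37, lay below the controls (-4.31 to -3.875), as did 7.71% of all probes. The list's medians were -0.52 and -0.43.

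The remaining lists held no called gene against the controls. Of 12 further bile acid transporters 8 were tested, with day 4 medians of -0.24 and -0.15. Of 10 genes of bile acid inactivation 7 were tested, with day 4 medians of -0.49 and -0.29 and a 12-day median after 6.7 Gy of 0.48. Of 4 genes of FGF19 production and reception 3 were tested, with day 4 medians of -0.15 and -0.03.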

How the data were processed

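Ileal RNA of 24 animals was hybridized by the authors to Agilent single-color Rhesus Macaque arrays, 1 array for each animal, and read with Feature Extraction. Per the file headers the deposited scanner files give each spot a background-subtracted intensity. The deposited raw table holds the same intensities for all 43553 probes with 1 spot. The log2 values of the authors' normalized table have the 75th percentile of each array subtracted and, as deposited, each probe centred on its median over the arrays. Values recomputed here from the intensities and centred alike differed from the authors' values by a median of 0.000493.

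Here the log2 intensity minus the 75th percentile of the array was used for 43603 probes that are not controls (45220 spots, of which 43803 are not controls). The test took the 36108 probes that Feature Extraction marks as well above background throughout 1 or more of the 7 groups. Symbols came from the normalized table and, for 8317 probes, from the RefSeq gene table by accession. The build of that table differs from that of the array's annotation, so no coordinates or sequences are given. In R 4.3.3, limma 3.58.1 (with data.table, version 1.17.8) fitted a mean for every group, with Benjamini-Hochberg adjustment within a comparison. Comparisons were made of irradiated groups with the controls, of doses and of days. Calls needed an adjusted p under 0.05 and a fold change of at least 2. The script was checked on simulated data. Each animal is a separate sample, and the number of animals limits the precision.

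All members with a probe are named, with the 3 genes most like each over the 24 arrays (1 of them is not reported here), the genes of the pathway lists called in a comparison with the controls, and single markers where a result turns on them. Members, lists and markers were chosen with earlier results of these data known. The alternatives were normexp background correction with an offset of 50 on median spot signals (mean signals were not used here), quantile normalization, another percentile base, other filters on dim probes, the authors' table, slide, array position or replicate number as a term, a trend in the moderation, the methods' t-test, fewer groups in the fit and leaving out each array. Scaling to epithelium or enterocyte markers was added after the data were seen. Replicate numbers did not pair the animals: deviations of same-numbered arrays had a median r of 0.0295 over 62 pairs (-0.264 to 0.365).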

Additional observations from a re-analysis of the deposited data

Results flagged for a closer look

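Among 40 groups of 4 arrays (8 genes in 5 groups), 2 had an array far from the other 3 by Dixon's test (critical value 0.829), and chance alone marks about 1 group in 20. SLC10A2 on the array of 7.4-Gy day 4 replicate 1 measured 2.09, below 3.19 to 3.21 in the other 3 animals. SLC51A on the array of 6.7-Gy day 7 replicate 4 measured 4.46, below 5.03 to 5.13.

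Levels differed between days after TBI by a direct test. From day 4 to day 7 the log2 difference was 0.61 for FABP6, 0.80 for SLC51A, 1.06 for SLC51B and 1.23 for NR1H4, each with an adjusted p under 0.05 by limma, and only the last 2 were past 2-fold. From day 4 to day 12 it was 1.51 for SLC51B and 1.46 for NR1H4. The day 4 levels are shared by these comparisons.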

How the results depend on the processing

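In the 7.4-Gy group on day 4, where 2 members were called, 1 was called with no filter on dim probes and with slide as a block, and 0 with array position as a term, with only the groups compared in the fit, by the methods' t-test after Benjamini-Hochberg adjustment, and on both scalings to enterocyte markers. The probes called there also went from 842 to 144 with array position, 418 with only the groups compared, 125 by that t-test and 64 and 67 on the enterocyte scalings. With both doses averaged on day 4, where 1 was called, there were 2 with quantile normalization, with only probes above background on all arrays, with slide as a block and with an intensity trend and robust moderation, and 0 with no filter on dim probes, array position as a term, only the groups compared and both enterocyte scalings. The replicate block also gave 2 there, as NR0B2 then passed (1.31, adjusted p = 0.046), and it changed no other count. The methods' t-test without adjustment called 1 member in the 6.7-Gy group on day 4, and 1 in each group of day 7. From day 4 to day 7 the count went from 2 to 1 with quantile normalization and with the brighter enterocyte markers, and to 0 with the epithelium and the full enterocyte list. From day 4 to day 12 it went from 2 to 1 with only the groups compared and to 0 on both enterocyte scalings, where SLC51B stayed past 2-fold (1.11 and 1.04, adjusted p = 0.13 and 0.072). Leaving out 1 array gave 0 to 2 calls in the 7.4-Gy group on day 4, 0 to 1 on day 7 after 7.4 Gy and for both doses, 0 to 3 on day 4 for both doses, and 1 to 3 from day 4 to day 7 and to day 12.

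Of 72 differences from the controls (8 genes in 9 comparisons) 34 had another sign in at least 1 setting, and 0 of these were called in any. Among the 39 differences printed above, FABP6 in the 7.4-Gy group on day 4 was 0.29 with array position and 0.16 on the epithelium scaling, and SLC10A2 in that comparison 0.34 with array position. NR1H4 on day 7 over both doses was -0.093 with slide as a block and -0.062 on the full enterocyte scaling, and -0.14 to 0.22 with 1 array left out. SLC51A from day 4 to day 12 was -0.018 with the brighter enterocyte markers. For these 39 differences, over the settings other than leaving out an array, 520 values kept direction and side of the threshold, 29 lost the call, 11 gained it and 6 changed sign. The cause was not tested. The mean over probes gave no value, as each member has 1 probe, and within-slide differences have no test. Slides 5 and 6 held no control, and the 12-day groups of 2 animals leave wide intervals.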
